A study of Homo sapiens with 6 samples.

Results

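The expressed ZNF genes are 232 of the 14884 genes that could be given 1 symbol in an array study of THP-1, an established cell line grown from a human acute monocytic leukaemia that carries a KMT2A-MLLT3 fusion. They were chosen by name and level: a symbol of ZNF followed by a digit, no pseudogene, no antisense name, and a mean log2 value of 5.5 or more over all 6 arrays. The array named 491 such symbols, of which 5 pseudogenes and 15 antisense names were dropped and 471 were left before the level was applied. Of the 232 genes, 231 were protein-coding and 1, ZNF236-DT, was a non-coding transcript divergent from ZNF236. The 239 ZNF genes below the level are not members.

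Cells of one group had been transduced with the vector psi-LVRU6GP carrying a short hairpin RNA against RKIP (RKIP shRNA, 3 arrays), and cells of the other with the empty vector (control, 3 arrays). Both groups were selected and kept in puromycin, and total RNA was hybridised to Affymetrix Human Gene 2.0 ST arrays. RKIP, the Raf kinase inhibitor protein encoded by PEBP1, restrains signalling through MEK and ERK. The labels call the arrays biological replicates but do not say whether they came from separate transductions, nor how many hairpin sequences or clones were used, so a p-value here speaks only for the spread of these arrays.

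ZNF symbols are given to genes whose proteins hold zinc fingers, mostly of the C2H2 type, in which a short loop held by a zinc ion reads bases of DNA. The largest class joins an array of fingers to a KRAB domain, which recruits the corepressor TRIM28 and through it the histone methyltransferase SETDB1 and heterochromatin proteins. Many of these KRAB genes lie in clusters on chromosome 19, many bind retroelements, and others have no KRAB domain and act as activators, chromatin adaptors or RNA-binding proteins. Protein sequences were not used here, so a KRAB domain is mentioned only as background.

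The targeted gene, PEBP1, averaged 8.22 ± 0.04 in RKIP shRNA arrays and 9.68 ± 0.14 in control arrays (log2 values, SD, n = 3 each), which left 36.4% of the control level. With 3 arrays in each group the exact two-sided permutation test cannot go below p = 0.1, which PEBP1 reached. Of the 9 monocytic genes looked for, 5 had a named probe. MPO, SPI1 and LYZ were called higher, MPO only with all 6 arrays. MPO averaged 13.03 in RKIP shRNA and 12.76 in control, SPI1 9.27 and 8.78, and LYZ 10.09 and 7.55, whereas CD14, a surface marker of monocytes, was near the bottom of the scale at 2.71 and 2.77, and CSF1R stood at 4.48 and 4.25. The 3 measured T cell genes lay between 4.50 and 5.07, and CD5 was the 1 called higher, a call lost on leaving out any array but control replicate 3. The 4 measured epithelial genes ranged from 2.87 to 8.11, with KRT18 called lower (adjusted p of up to 0.0815 on leaving out any control array or RKIP shRNA replicate 1), and PAX5 of the B cell list stood at 6.71 and was not called. Of the 2 measured fibroblast genes, FN1 was called higher. The part of these genes in the ZNF results was not tested. In RNA from many cells, fewer cells of a type and less RNA per cell cannot be told apart.

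Of the expressed ZNF genes 60 passed the test, and 1 of them changed by 2-fold or more. That gene was ZNF850, which was singled out for its change when the set was drawn up. A change of that size, called or not, was seen in 192 of all 14884 genes and in 135 of the 6784 genes at 5.5 or more. A gene was called when its limma p-value, adjusted by Benjamini-Hochberg over all 14884 genes, was under 0.05. By that rule RKIP shRNA cells had 25 of the 232 genes higher and 35 lower, and 172 were not called. These are 10.8% higher and 15.1% lower, where 20.2% of all genes were called, 10.0% higher and 10.2% lower. The median standard error of a change was 0.10 over all genes and 0.08 over genes at 5.5 or more, so the share was also set against genes of that level. Among all 6784 genes with the same level of 5.5 or more, 18.7% were higher and 17.0% lower, 35.7% in all, against 25.9% of the expressed ZNF genes. Both shares of the ZNF genes lay below those of genes at 5.5 or more. The 2 sets share the minimum but not the brightness, with a median level of 7.03 in the ZNF genes and 7.60 in all genes at 5.5 or more. No test of this gap was made.

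The count of higher genes fell below 25 whichever array was left out. It was 14 without RKIP shRNA replicate 1 or without replicate 3, 15 without control replicate 1 or without replicate 3, and 16 without control replicate 2. The share of higher ZNF genes fell from 10.8% to between 6.03% and 7.76%. Over all genes at 5.5 or more it fell too, from 18.7% to between 12.2% and 15.1%. The share of lower genes fell from 15.1% to between 10.3% and 13.8% in the ZNF genes. Over all genes at 5.5 or more it fell from 17.0% to between 11.3% and 14.4%. The fall was not confined to ZNF genes or to a particular array. With each of the 6 arrays left out in turn, 12 of the 25 higher genes and 24 of the 35 lower genes stayed called every time.

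Counted without any test, 109 of the 232 genes (47.0%) had a change above 0 and 123 a change below 0. Of all genes 54.2% had one above 0, and of genes at 5.5 or more 52.9%. The median log2 change was -0.01 in the expressed ZNF genes, 0.02 over all genes and 0.02 over all genes at 5.5 or more. The 10th and 90th percentiles of the ZNF genes were -0.40 and 0.31, against -0.43 and 0.42 in genes at 5.5 or more. The 3 RKIP shRNA arrays did not overlap with the 3 control arrays for 119 genes (51.3%), 53 of them higher and 66 lower. The same held for 37.9% of all genes (19.8% higher, 18.1% lower) and 62.0% of genes at 5.5 or more (33.0% higher, 29.0% lower). Array averages over the 232 genes lay between 7.08 and 7.13 in RKIP shRNA and between 7.10 and 7.15 in control.

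**Figure D1:**
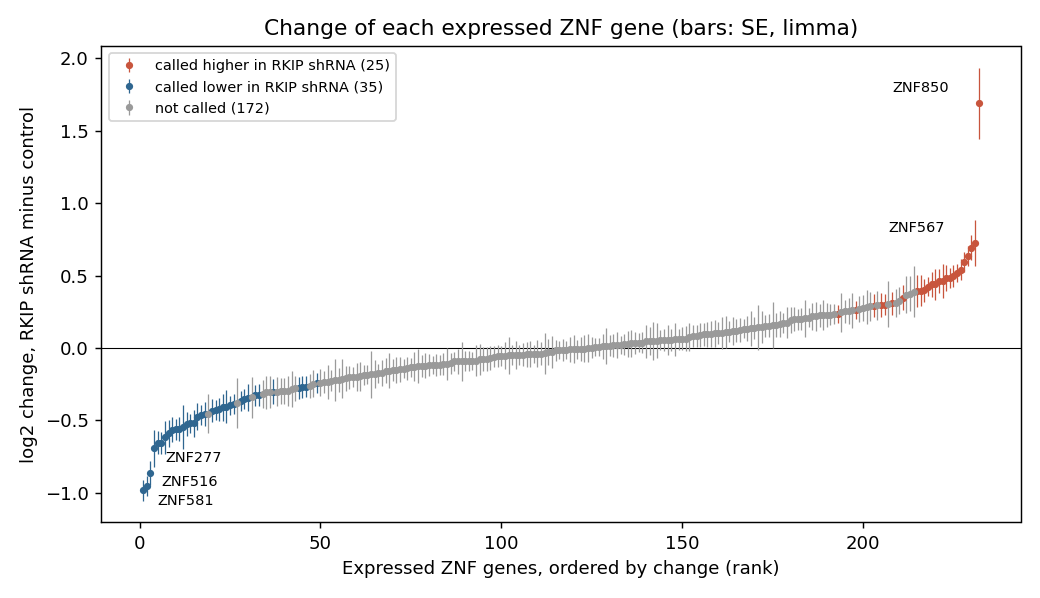
Each point is 1 of the 232 expressed ZNF genes, placed by the rank of its log2 change of RKIP shRNA minus control (y axis), with bars for the standard error from limma. ZNF850 stands at 1.69, apart from the next gene, ZNF567, at 0.72, while ZNF581, ZNF516 and ZNF277 lie at the lower end.

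The shares were also set out by level. At mean values from 5.5 to 6.5, 5 of 80 ZNF genes were higher and 9 lower, or 6.25% and 11.2%, against 12.6% and 17.5% of all genes at that level. From 6.5 to 7.5, 11 of 77 were higher and 11 lower, or 14.3% each, against 18.0% and 17.0%. From 7.5 to 8.5, 7 of 48 were higher and 8 lower, or 14.6% and 16.7%, against 21.9% and 18.3%. At 8.5 and above the directions parted: 2 of 27 were higher and 7 lower, or 7.41% and 25.9%, against 21.5% and 15.4% of all genes. The brightest bin holds few ZNF genes, and none of these differences was tested.

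**Figure D2:**
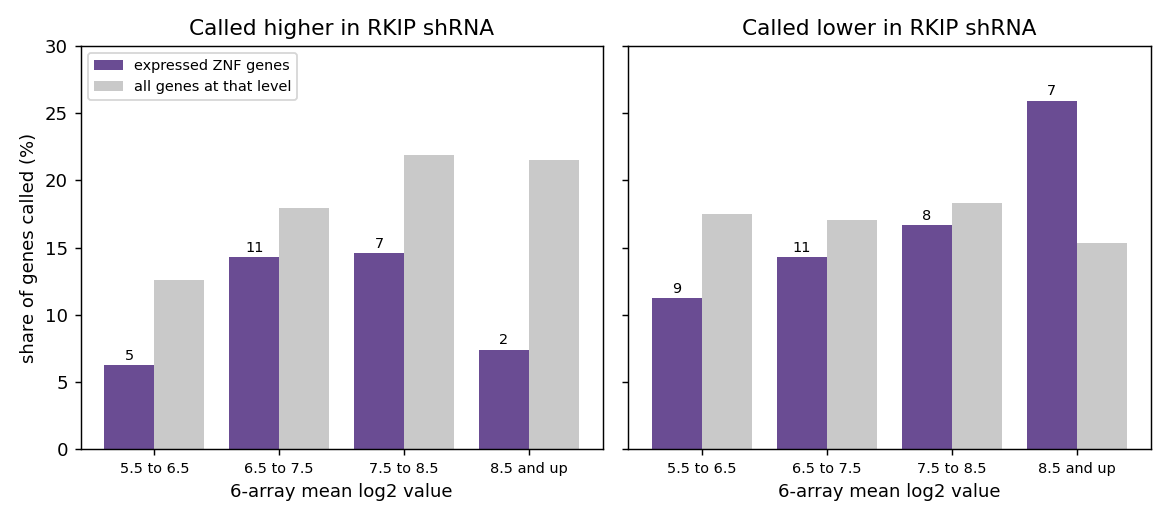
Share of genes called higher (left) and lower (right) in RKIP shRNA, in percent, by bins of the 6-array mean log2 value. Purple bars are the expressed ZNF genes, with the number of called genes above, and grey bars are all genes at that level; the purple bar is the taller one only for lower genes at 8.5 and above, at 25.9% against 15.4%.

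ZNF850, a KRAB zinc finger gene of chromosome 19, had the largest change. It was singled out for that change when the gene set was drawn up, so its values are given as a description. Its log2 values were 6.65, 7.20 and 6.22 in RKIP shRNA arrays, against 5.25, 4.97 and 4.78 in control arrays. The groups were separated by a gap of 0.97 between the lowest RKIP shRNA array and the highest control array. The change was 1.69 (SE 0.25), and between 1.43 and 1.92 when 1 array was left out. ZNF850 also had the largest spread of all 232 genes within RKIP shRNA, with an SD of 0.49 against 0.24 in control. Its control mean of 5.00 lay below the level of 5.5, so it entered the set through its RKIP shRNA arrays. Another 4 members had a control mean below 5.5 (ZNF527, ZNF708, ZNF230 and ZNF408) and none of them was called. ZNF391, called lower, averaged 5.23 in RKIP shRNA and 5.78 in control, so it entered the set through its control arrays.

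The gene with the next largest rise, ZNF567, also a KRAB zinc finger gene, is the direct neighbour of ZNF850 among the protein-coding genes of chromosome 19. ZNF567 read 7.21, 7.04 and 7.32 in RKIP shRNA arrays, against 6.81, 6.38 and 6.21 in control arrays. The groups did not overlap, with control replicate 1 closest to the RKIP shRNA arrays. The change was 0.72 (SE 0.16, limma adjusted p = 0.0197). The call was lost on leaving out control replicate 2 or 3 or RKIP shRNA replicate 1 or 3, with an adjusted p of up to 0.0670.

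None of the other measured neighbours was called higher. On the ZNF567 side, ZNF461 had a change of -0.31 and ZNF529 of -0.09, neither called, and between these lies ZNF382, a KRAB gene below the level, which fell by 0.81 (limma adjusted p = 0.0267, up to 0.0845 on leaving out control replicate 2 or 3 or RKIP shRNA replicate 2). On the far side of ZNF850, ZNF790 had a change of -0.17, ZNF345 of -0.44 and ZNF829 of 0.11, and none was called. This stretch was looked at after the values of both genes were known. ZNF genes of 1 cluster share finger sequence, and whether probes of close copies read each other was not tested.

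**Figure D3:**
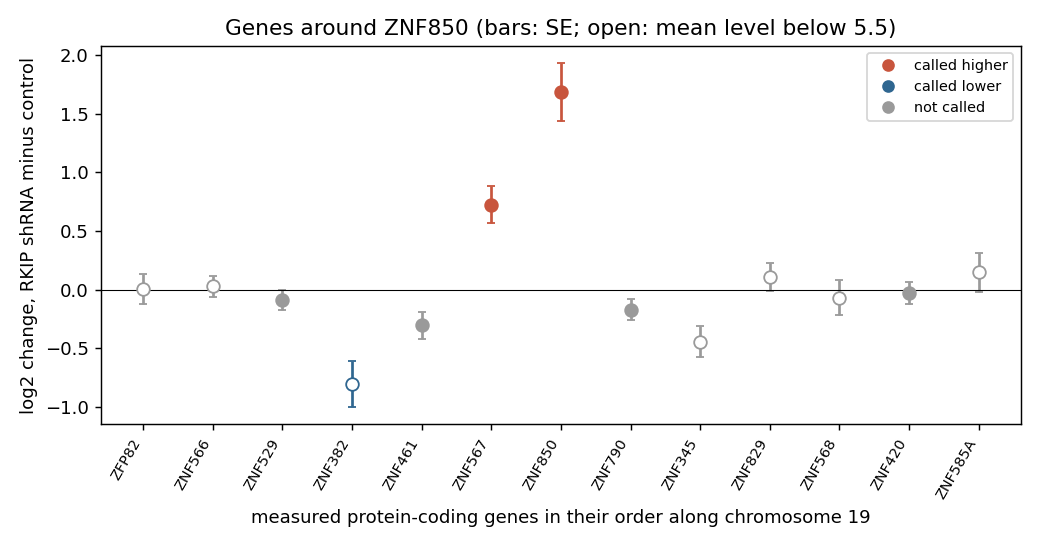
Log2 change of RKIP shRNA minus control with its standard error for ZNF850 and the 6 measured protein-coding genes on each side, in their order along chromosome 19. Filled points are expressed ZNF genes and open points lie below the level of 5.5; ZNF567 at 0.72 and ZNF850 at 1.69 lie next to each other, and ZNF382 at -0.81 is parted from ZNF567 by ZNF461 at -0.31.

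Over the genome 57 pairs of expressed ZNF genes were next to each other among the measured protein-coding genes, and in 5 pairs both were called. In 3 of these the direction was shared: ZNF567 with ZNF850, ZNF391 with ZNF184 (-0.56 and -0.56), and ZNF510 with ZNF782 (-0.53 and -0.30). In the other 2 it was opposite: ZNF516 at -0.95 beside ZNF236 at 0.48, and ZNF766 at -0.56 beside ZNF480 at 0.40. ZNF782 lost its call whichever array was left out, and ZNF480 on leaving out any array but control replicate 2. ZNF850 had entered the set through its RKIP shRNA arrays and ZNF391 through its control arrays. Of all expressed ZNF genes 25.9% were called, so some pairs with both called would arise without any link between neighbours. Whether 5 is more than that was not tested, and pairs of other genes were not counted.

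The promoters of the 2 neighbours that rose are shown because both hold the same 12-letter word. The word is not confined to them. ZNF790, on the other side of ZNF850, and ZNF420, further along, hold it in a window too. Neither was called, with changes of -0.17 and -0.03. The 250 bases before each annotated start were taken from RefSeq (GRCh38.p14), on the strand of the gene, with the word in capitals. It is a module of ACTACA, 2 bases of any kind (NN) and TCCC, searched on both strands, which is known to be bound by ZNF143 and by THAP11 with its cofactor HCFC1. The ZNF850 window is chr19:36772808-36773057 on the minus strand, and the ZNF567 window is chr19:36687362-36687611 on the plus strand. A second ZNF567 window, at an upstream start, held no match.
ZNF850: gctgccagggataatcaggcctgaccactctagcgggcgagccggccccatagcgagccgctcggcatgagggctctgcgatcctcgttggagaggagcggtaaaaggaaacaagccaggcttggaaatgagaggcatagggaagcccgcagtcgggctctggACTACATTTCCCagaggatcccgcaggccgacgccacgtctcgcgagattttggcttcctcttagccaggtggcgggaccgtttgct
ZNF567: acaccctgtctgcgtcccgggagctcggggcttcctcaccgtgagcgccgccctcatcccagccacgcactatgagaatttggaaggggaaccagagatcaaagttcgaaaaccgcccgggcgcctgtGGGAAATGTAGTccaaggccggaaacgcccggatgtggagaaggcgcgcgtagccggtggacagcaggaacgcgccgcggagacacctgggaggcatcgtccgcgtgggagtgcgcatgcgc
The word begins 87 bases before the ZNF850 start and reads along the gene, whereas in ZNF567 it reads on the opposite strand.

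The module was then counted in all members. RefSeq windows were found for 206 of the 232 genes, 252 windows in all, and 30 of them (11.9%) held it, against 1.67% of all 35116 windows and 3.70% of the windows of genes at 5.5 or more. By call it stood in the windows of 6 of 22 higher genes, 2 of 33 lower genes and 22 of 151 genes not called. These counts changed whichever array was left out, an alternative chosen after seeing the data. The module then stood in 3 to 5 of 13 to 18 higher genes and in 1 or 2 of 22 to 29 lower genes. The higher genes were ZNF850, ZNF567, ZNF584, ZNF691, ZNF45 and ZNF225, and the lower ones ZNF277 and ZNF782. Of the 6 higher genes ZNF850 and ZNF584 stayed called whichever array was left out. Without RKIP shRNA replicate 1 the other 4 lost their calls (ZNF45 at an adjusted p of 0.0513), and without control replicate 2, control replicate 3 or RKIP shRNA replicate 3 ZNF567, ZNF691 and ZNF225 did. ZNF225 and the lower gene ZNF782 lost theirs whichever array was left out. The module was counted after it had been seen in the first window, and no test was made. The 6 higher genes include ZNF850 and ZNF567, whose windows are shown above for holding it. ZNF850 also entered the set through its RKIP shRNA arrays. The counts by call are therefore no independent support for a link. A match is a description of letters and shows neither a bound site nor a cause.

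The matches of the other called genes are given with 14 bases on each side, all read along the module, to show the letters around the module. They lie at chr19:44113235-44113274 and chr19:44113307-44113346 (ZNF225, minus strand), chr19:43935290-43935329 (ZNF45, plus), chr19:58408583-58408622 (ZNF584, minus), chr1:42846422-42846461 (ZNF691, plus), chr7:112206481-112206520 (ZNF277, minus) and chr9:96854573-96854612 (ZNF782, plus).
ZNF225 first match: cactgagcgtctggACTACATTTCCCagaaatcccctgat
ZNF225 second match: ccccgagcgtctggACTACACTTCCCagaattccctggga
ZNF45: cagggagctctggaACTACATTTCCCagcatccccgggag
ZNF584: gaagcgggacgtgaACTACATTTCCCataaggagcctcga
ZNF691: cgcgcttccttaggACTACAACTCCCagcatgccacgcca
ZNF277: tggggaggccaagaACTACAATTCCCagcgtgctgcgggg
ZNF782: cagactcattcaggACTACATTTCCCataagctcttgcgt
Counting ZNF850 and ZNF567, the called genes held 9 matches, between 33 and 200 bases before the start, of which 2 read along the gene.

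**Figure D4:**
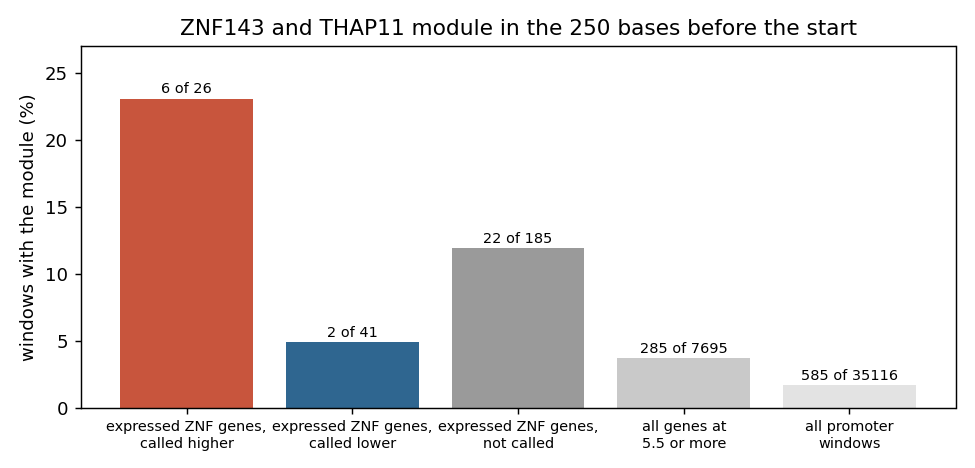
Share of promoter windows of 250 bases that hold the ZNF143 and THAP11 module, in percent, with counts above the bars. It is 23.1% for higher, 4.88% for lower and 11.9% for uncalled expressed ZNF genes. Over all genes at 5.5 or more it is 3.70%, and over all windows 1.67%. With 1 array left out the share was 16.7% to 26.3% for higher and 2.86% to 6.67% for lower genes. The higher genes include ZNF850 and ZNF567, whose windows were shown for holding the module.

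The factors that read this module were measured too. ZNF143, itself an expressed ZNF gene and an activator of promoters, read 7.52, 7.36 and 7.61 in RKIP shRNA, against 7.05, 7.24 and 7.30 in control. The groups did not overlap, and its change of 0.29 was not called (limma adjusted p = 0.0849). THAP11 lay between 7.44 and 7.65 in RKIP shRNA, against 6.87 to 7.23 in control, and HCFC1 read 10.35, 10.41 and 10.42, against 9.65, 9.74 and 9.65 in control. Both genes, looked up after the module was seen, were called higher without overlap, THAP11 by 0.46 (limma adjusted p = 0.0277) and HCFC1 by 0.72 (adjusted p = 0.000813). THAP11 lost its call on leaving out control replicate 1 or 3 or RKIP shRNA replicate 1 or 3. Their part in the ZNF changes was not tested.

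Other promoter words were counted in the same windows. The GC box GGGCGG stood in 61.1% of the ZNF windows and in 65.7% of the windows of genes at 5.5 or more, the CCAAT box CCAAT in 42.5% and 34.4%, and the ETS core CGGAAG in 42.5% and 28.9%. The NRF1 word, GCGCA followed directly by TGCGC, stood in 2.38% and 2.05%, the CRE word TGACGTCA in 4.37% and 2.68%, and the TATA word TATAAA in 4.37% and 5.32%. Each was searched on both strands, and over all windows the shares were 42.6%, 32.0%, 16.5%, 1.03%, 1.65% and 10.7% in the same order. The more frequent words differed by call too. The GC box stood in 46.2% of higher, 65.9% of lower and 62.2% of uncalled ZNF windows. For the CCAAT box these shares were 38.5%, 29.3% and 45.9%, and for the ETS core 42.3%, 51.2% and 40.5%. None of these differences was tested.

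Of the remaining rises ZNF200 was the largest. It read 7.03, 7.20 and 7.20 in RKIP shRNA, against 6.55, 6.44 and 6.37 in control, a change of 0.69 (SE 0.08, limma adjusted p = 0.00223). ZNF326, a subunit of the DBIRD complex that couples transcription to splicing, read 9.13, 9.12 and 9.23, against 8.49, 8.53 and 8.56 in control. Its change was 0.63 (SE 0.07, limma adjusted p = 0.00131), and the groups did not overlap in either gene. ZNF584, a KRAB gene, rose by 0.59, the imprinted KRAB gene ZNF597 by 0.54 and the KRAB gene ZNF3 by 0.51. ZNF142 and ZNF236, which encode long finger arrays without a KRAB domain, rose by 0.50 and 0.48, ZNF79 by 0.48 and ZNF691 by 0.46. The call of ZNF691 rested on all arrays but control replicate 1: leaving out any other array ended it, with an adjusted p of up to 0.102. The others stayed called whichever array was left out.

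The largest falls among the expressed ZNF genes were in ZNF581, ZNF516 and ZNF277. ZNF581 read 7.59, 7.58 and 7.58 in RKIP shRNA, against 8.67, 8.52 and 8.51 in control, a change of -0.98 (SE 0.07, limma adjusted p = 0.000414). ZNF516, a transcription factor known in mice for promoting brown fat genes, read 6.71, 6.61 and 6.72, against 7.59, 7.69 and 7.60 in control. It changed by -0.95 (SE 0.07, limma adjusted p = 0.000437). In both genes the groups lay several times their own spread apart.

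ZNF277, which encodes a partner of the ribosomal protein RPS2, read 8.19, 8.07 and 8.31 in RKIP shRNA, against 9.03, 9.10 and 9.03 in control. It fell by 0.86 (SE 0.08, limma adjusted p = 0.000883). Falls of 0.55 or more were also seen in the KRAB genes ZNF558 (-0.69), which represses the mitophagy gene SPATA18 in human neural progenitors, ZNF496 (-0.66), whose mouse counterpart binds the methyltransferase NSD1, ZNF484 (-0.65), ZNF589 (-0.62), first found in blood progenitors, ZNF766 (-0.56) and ZNF184 (-0.56). ZNF362 (-0.59) and ZNF391 (-0.56) fell too, ZNF391 having entered the set through its control arrays. ZNF383, a KRAB gene, fell by 0.54 (limma adjusted p = 0.0462), lost its call on leaving out control replicate 1 or 2 or RKIP shRNA replicate 1 or 2, and had a second, dimmer probe at -0.15.

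**Figure D5:**
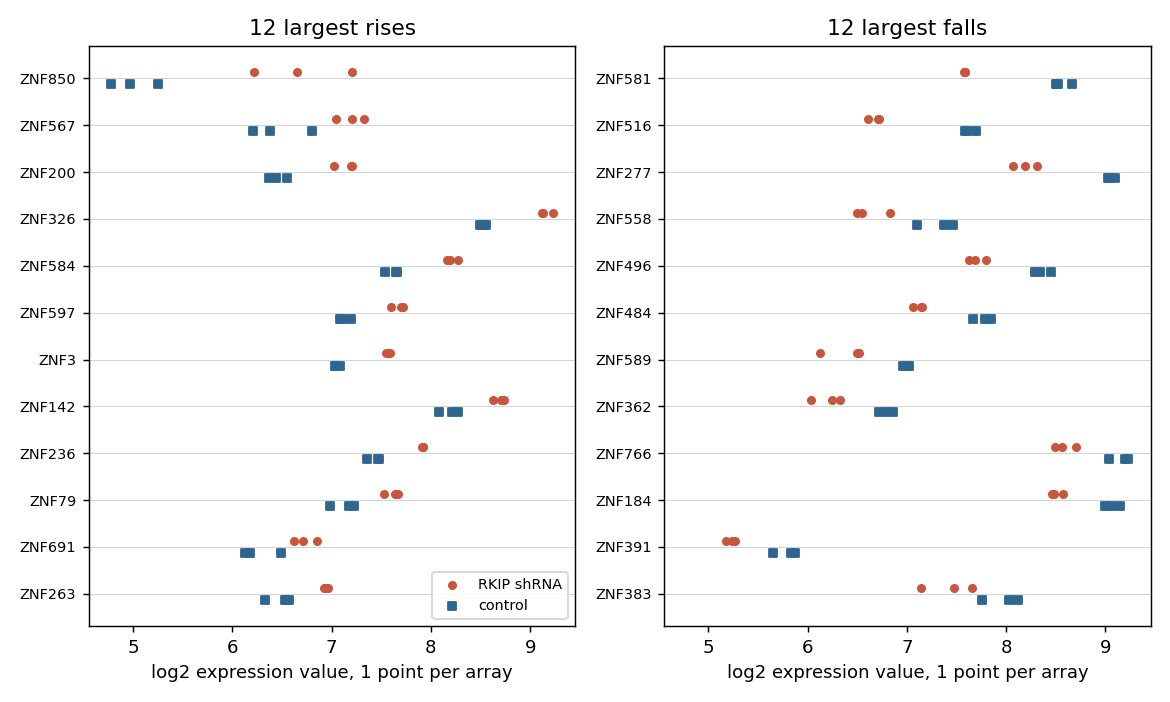
Log2 expression values of the 12 ZNF genes with the largest rise (left) and the 12 with the largest fall (right), 1 point per array, with RKIP shRNA arrays as circles drawn above control arrays as squares. The genes were taken only from called protein-coding genes whose groups did not overlap. In each gene the 3 RKIP shRNA arrays therefore lie to 1 side of the 3 control arrays. The widest spread is in ZNF850, from 6.22 to 7.20 in RKIP shRNA.

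By role, 22 ZNF genes were chromatin and promoter factors, of which 18 were expressed members. Of these 2 were higher, 6 lower and 10 not called, with a median change of -0.05. That is 11.1% higher and 33.3% lower, beside 10.0% and 10.2% of all genes and 18.7% and 17.0% of genes at 5.5 or more, and no test of the difference was made. ZNF516 fell most. ZNF518A, a partner of histone methyltransferases, fell by 0.38 (SE 0.07), ZNF827, which recruits the NuRD complex to telomeres, by 0.37 (SE 0.07), and ZNF217, an oncogene whose protein binds the CoREST complex, by 0.35 (SE 0.07). ZNF217 read 7.14, 7.05 and 7.19 in RKIP shRNA, against 7.49, 7.45 and 7.49 in control, without overlap.

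ZNF274, the KRAB protein that brings SETDB1 to the ends of other ZNF genes, fell by 0.34 (limma adjusted p = 0.0413), and ZNF131 fell by 0.24 (adjusted p = 0.0474). Leaving out any array but control replicate 3 ended the call of ZNF274, and leaving out any array ended that of ZNF131, with adjusted p of up to 0.111 and 0.137. The 2 that rose were ZNF263, a repressor and activator with SCAN and KRAB domains, at 0.46 (SE 0.08), and ZNF335, a subunit of histone methyltransferase complexes, at 0.29 (SE 0.08). ZNF335 kept its call only without RKIP shRNA replicate 2, with an adjusted p of up to 0.122.

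Of 13 ZNF genes whose proteins work on RNA, ribosomes, spindles or ubiquitin, 12 were members, of which ZNF326 rose, ZNF277 fell and 10 were not called, with a median change of 0.01. The called share was 16.7%, beside 20.2% of all genes and 35.7% of genes at 5.5 or more. ZNF207, the spindle assembly factor BuGZ, averaged 10.40 ± 0.04 in RKIP shRNA and 10.44 ± 0.04 in control (SD, n = 3 each), with overlapping arrays and a change of -0.04. The ribosome quality control ligase gene ZNF598 had a change of 0.04 and the ribosome maturation factor gene ZNF622 of 0.05, neither called. Of 9 KRAB genes known for binding retroelements, 2 were members. ZNF587 rose by 0.24 (limma adjusted p = 0.0414, lost whichever array was left out), and its close copy ZNF417 had a change of 0.04 and was not called.

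Of the 4 members with the highest mean values, ZNF121 was the 1 called, and ZNF207 is given above. ZNF121 averaged 10.51 ± 0.08 in RKIP shRNA and 10.78 ± 0.04 in control (SD, n = 3 each), and fell by 0.27 (limma adjusted p = 0.0421). The call was lost on leaving out any array but RKIP shRNA replicate 3, with an adjusted p of up to 0.131. ZNF280C had a change of -0.13 and ZNF146, which encodes a protein made almost only of fingers, of 0.12, and neither was called. At the level of 5.5, the members just inside were ZNF391 at a mean of 5.506 and ZNF708 at 5.513, and the genes just outside were ZNF696 at 5.496 and ZNF341 at 5.479.

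Chromosome 19, home of many KRAB clusters, held 86 of the members. Of these 11 were higher and 11 lower, or 12.8% each, with a median change of -0.01. Of the 146 members on other chromosomes 14 were higher and 24 lower, or 9.59% and 16.4%, with a median of -0.02. Among all 475 genes of chromosome 19 at the same level, 23.8% were higher and 12.6% lower, with a median of 0.09. The difference between these groups was not tested.

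The corepressor machinery that KRAB proteins use changed in both directions. Of 23 listed genes 20 were measured, of which 6 were higher, 4 lower and 10 not called, with a median change of 0.03. That is 30% higher and 20% lower, beside 18.7% and 17.0% of all genes at 5.5 or more, the level that each of the 20 genes reached. TRIM28, the corepressor that binds the KRAB domain, read 10.89, 10.96 and 10.85 in RKIP shRNA, against 10.26, 10.43 and 10.46 in control, and rose by 0.52 (SE 0.08, limma adjusted p = 0.00485). CBX5, the heterochromatin protein HP1 alpha, read 7.37, 7.08 and 7.49, against 8.24, 8.31 and 8.38 in control, and fell by 1.00 (SE 0.12, limma adjusted p = 0.00181). Its close relative CBX1 (HP1 beta) rose by 0.37 while CBX3 (HP1 gamma), at 0.21, was not called. The SETDB1 cofactor gene ATF7IP fell by 0.43, the chromatin remodeller genes ATRX and CHD3 by 0.44 and 0.29, whereas TRIM24, DAXX, HDAC1 and UHRF1 rose by 0.40, 0.31, 0.27 and 0.22. TRIM28, TRIM24, CBX5, ATRX and ATF7IP stayed called whichever array was left out, while CBX1, DAXX, HDAC1, UHRF1 and CHD3 each lost the call in 4 or more of 6 such fits. SETDB1 was not analysed here.

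Of 104 measured finger genes of the ZBTB, ZSCAN, ZKSCAN, ZFP, KLF and IKZF families 8 were higher and 17 lower, or 7.69% and 16.3%, beside 10.0% and 10.2% of all genes. Of the 67 among them at 5.5 or more, 6 were higher and 16 lower, or 8.96% and 23.9%, beside 18.7% and 17.0% of all genes at that level, with a median change of -0.03. In the ZBTB family, whose proteins carry a BTB domain, 5 of 40 were higher and 9 lower, and in the KLF family none of 17 was higher by limma and 3 were lower.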

How the data were processed

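The deposited table held 53617 rows of log2 values from 6 arrays, with 0 columns left unused. The log2 unit of the deposited values was inferred, as they run between 0.721 and 14.0. How the authors summarised and normalised them is not given in the sources used here, and detection calls were not used. The supplied platform annotation gave 1 symbol to 16098 rows and several to 0. For each gene the probe with the highest mean over 6 arrays was kept, and 9 members had other probes.

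Gene type, chromosome and gene order came from the RefSeq table of GRCh38.p14, matched by gene number. RKIP shRNA minus control was fitted in R 4.3.3 with limma 3.58.1 (lmFit, then eBayes), over all 14884 genes, with Benjamini-Hochberg adjustment. Of these genes 4806 had an unadjusted p under 0.05. The fit was also run on simulated data with independent noise, which cannot speak for effects shared by genes of an array or for the error rate in these data. The labels name no batch. Array pairs shared identical values in 58 to 144 rows, so none was a duplicate. Errors of changes are limma standard errors. The number of arrays limits the precision.

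Members and lists were chosen with earlier results of these data known. Genes were named by rule: PEBP1, ZNF850, the 12 largest rises and 12 largest falls among called protein-coding members without overlap, the 4 highest means, 2 genes on each side of the level, and called members of the role lists. Other names, the promoter words and the neighbours were chosen after values were seen. The number of fingers and KRAB domains was not analysed here. The alternatives tried were a trended and robust prior, an ordinary t statistic, array weights, a replicate block, median centring, quantile normalisation, mean probes, a brightness filter, other level minimums, a stricter threshold and leaving out each array. Figures were drawn with matplotlib 3.10.9.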

Additional observations from a re-analysis of the deposited data

Results flagged for a closer look

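Outside the 232 expressed genes, 9 of the 239 ZNF genes below the level were called higher in RKIP shRNA cells (limma adjusted p under 0.05), or 3.77%, a smaller share than the 10.0% of all genes. They are given because the comparison above leaves these genes out. The largest called rise was in ZNF165 at 0.83, which averaged 5.03 ± 0.12 in RKIP shRNA and 4.21 ± 0.22 in control (SD, n = 3 each). ZNF429 followed at 0.60, with both group means below the median of all rows, 4.08, and lost its call on leaving out control replicate 1 or 2 or RKIP shRNA replicate 1 or 3. ZNF385A, which encodes an RNA-binding finger protein, had a change of 0.59, with an adjusted p of 0.0518 without control replicate 2. Of the 20 dropped pseudogene and antisense names 0 were called higher and 0 lower by limma.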

How the results depend on the processing

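The count of 25 higher ZNF genes was 40 with a trended and robust prior, 39 when genes below the median brightness were left out, and 11 at an adjusted p under 0.01. The count of 35 lower ZNF genes was 18 at that stricter threshold. Leaving out 1 array gave 14 to 18 higher and 24 to 32 lower genes. Under the other alternatives both counts stayed within 1.5 times of 25 and 35. The labels do not say whether arrays with the same replicate number were paired. Deviations of same-numbered arrays correlated at -0.02 to 0.02, and those of other pairs at -0.03 to 0.03. With the replicate number as a block, 17 were higher and 24 lower. In the 14 alternatives that kept the 232 genes and the threshold, more ZNF genes were lower than higher. The share of higher ZNF genes lay below that of all genes at or above the same level minimum in all 14. The share of lower ZNF genes did so in 13, the exception being the fit without RKIP shRNA replicate 1. The comparison genes share the minimum but not the brightness of the ZNF genes. Single genes were followed for the 38 ZNF genes named by rule, many of them picked for large called changes and some not called. Of their 532 values under an alternative, 468 kept direction and call, 63 lost the call and 1 gained it. Among all called ZNF genes, 12 of the 25 higher and 22 of the 35 lower kept their call in all 14. PEBP1 kept its call in all 14. How far signal near background limits a change was not tested.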

Other observations

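ZNF genes below the level held the largest falls of the ZNF genes tested. Of 239 such genes 14 were called lower by limma, or 5.86%, a smaller share than the 10.2% of all genes. ZNF844 read 3.45, 3.22 and 3.59 in RKIP shRNA, against 4.44, 5.22 and 4.28 in control, a change of -1.23 (SE 0.24). ZNF704 read 4.75, 4.75 and 4.56, against 5.76, 5.82 and 5.63 in control, a change of -1.05 (SE 0.09), and ZNF83 fell by 1.00 (SE 0.15). In these 3 genes no RKIP shRNA array overlapped with a control array.

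Probes of ZNF248 differed from each other. The kept probe, with a mean of 7.72, had a change of -0.28 and was not called (limma adjusted p = 0.0570). The other, with a mean of 6.93, fell by 1.00 (SE 0.08). These genes and the probe were picked after their values were seen.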
